A study of Homo sapiens with 12 samples.

Results

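The ErbB genes described here are 3 receptors (EGFR, ERBB2 and ERBB3), 5 ligand genes (NRG1, HBEGF, AREG, EREG and TGFA) and ERRFI1, which encodes an inhibitor of the receptors. They were taken by symbol, and all 9 were found among the 27064 gene symbols listed in each of 2 deposited count tables. The RNA came from H226 (NCI-H226), a mesothelioma line, and ACHN, a kidney cancer line, both described by the submitters as deficient in the Hippo pathway gene NF2. Cells of each line were kept overnight with SWTX-143 at 100 nM or with DMSO. SWTX-143 is an irreversible inhibitor of TEAD, the transcription factors through which YAP and TAZ act when Hippo signalling is lost. The 4 groups were H226 with SWTX-143, H226 with DMSO, ACHN with SWTX-143 and ACHN with DMSO, with 3 poly(A) RNA libraries each. Whether libraries within a group represent separate cultures is not stated, and p-values measure the spread between these libraries, which may be technical.

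ErbB receptors are tyrosine kinases of the cell surface that signal in pairs to RAS and ERK and to PI3K and AKT. EGFR binds TGF-alpha, amphiregulin (AREG), epiregulin (EREG) and HB-EGF. ERBB3 binds neuregulin (NRG1) but has an impaired kinase of its own, and ERBB2 has no known ligand and serves as partner to the others. The ligands are made as membrane proteins and cut free by proteases such as ADAM17. Mesothelial and kidney tubule cells both use EGFR signalling in growth and repair.

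Libraries held 9690980 to 11262663 counts, so that 1 count was 0.0844 to 0.110 CPM (counts relative to library size, scaled by TMM over all 12 libraries). Mesothelial markers were present in H226, where mesothelin (MSLN) averaged 197 ± 1.99 CPM with DMSO, against 0.783 ± 0.281 CPM in ACHN with DMSO (SD, n = 3 each). ACHN carried the kidney factors PAX8 and PAX2, but the tubule receptors CUBN and LRP2 had 7 and 0 counts summed over the DMSO libraries. The mesothelial marker LRRN4 was also present in ACHN with DMSO (177 ± 0.383 CPM). The leukocyte marker PTPRC had 0 counts in all 12 libraries. NF2 had 1 count in the 3 H226 libraries with SWTX-143 and 0 in those with DMSO, but ACHN libraries held NF2 RNA. The TEAD target CTGF, used here as a check of the drug, was lower with SWTX-143 in H226 (log2 fold change −2.53 ± 0.08, SE) and in ACHN (−2.39 ± 0.06). Because these are bulk samples, fewer cells of a kind and less RNA per cell cannot be told apart.

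The first question was which receptors and ligands each line makes. By level per transcript length in H226 with DMSO, EGFR, ERBB3, HBEGF and ERBB2 led, and most ligands were scarce. On the same measure in ACHN with DMSO, EGFR was followed by the ligands TGFA and NRG1, while ERBB3 was low. To compare genes, CPM were divided by the longest coding transcript in kilobases, and these levels are a description without a test. Per kilobase in H226 with DMSO, EGFR stood at 33.1 ± 2.25 CPM and ERBB3 at 23.5 ± 0.164 CPM. Behind them came HBEGF at 14.9 ± 0.929 and ERBB2 at 14.5 ± 0.451 CPM per kilobase, which did not differ beyond their spread. ERRFI1 was at 9.66 ± 0.211, TGFA at 2.96 ± 0.109 and NRG1 at 1.33 ± 0.164 CPM per kilobase. AREG had 3 counts in all and EREG none, so both ended the order.

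With SWTX-143 the H226 order changed among ERBB3, HBEGF and ERBB2. ERBB3 fell to 10.7 ± 0.186 CPM per kilobase, below ERBB2 at 15.0 ± 0.423 and HBEGF at 12.5 ± 0.182, and level with ERRFI1 at 10.6 ± 1.22 CPM per kilobase. ERBB2 and HBEGF, close together with DMSO, then stood apart by more than their spread, with ERBB2 higher. EGFR still led with 29.5 ± 3.63 CPM per kilobase. The places of HBEGF, ERBB2, ERBB3, TGFA and ERRFI1 rest on the length chosen. Per kilobase of coding sequence in H226 with SWTX-143, HBEGF came to 47.8 CPM, above ERBB2 at 19.0 CPM. In H226 with DMSO, HBEGF came to 56.8, ERBB3 to 34.6 and ERBB2 to 18.4 CPM per kilobase of coding sequence. TGFA at 25.7 and ERRFI1 at 21.6 CPM then stood above ERBB2.

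In ACHN with DMSO, EGFR stood at 52.1 ± 2.70 and TGFA at 38.9 ± 2.09 CPM per kilobase. NRG1 (23.6 ± 0.457), ERBB2 (22.1 ± 0.250), EREG (17.1 ± 0.399) and ERRFI1 (13.9 ± 0.892 CPM per kilobase) followed. HBEGF (5.89 ± 0.663), ERBB3 (3.74 ± 0.117) and AREG (1.64 ± 0.521 CPM per kilobase) were the lowest members. With SWTX-143, EGFR at 36.4 ± 1.39 and TGFA at 37.5 ± 0.938 CPM per kilobase did not differ beyond their spread. NRG1 came to 17.7 ± 0.265 CPM per kilobase, below ERBB2 at 22.0 ± 0.206 and EREG at 19.1 ± 0.195. HBEGF, at 3.65 ± 0.342 CPM per kilobase with SWTX-143, came below ERBB3 at 4.36 ± 0.105. The order rests on the length chosen, since TGFA and EREG have short coding parts. Per kilobase of coding sequence in ACHN with DMSO, TGFA came to 337, EREG to 156 and EGFR to 141 CPM. ERRFI1 came to 31.2 and ERBB2 to 28.1 CPM on that measure.

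**Figure D1:**
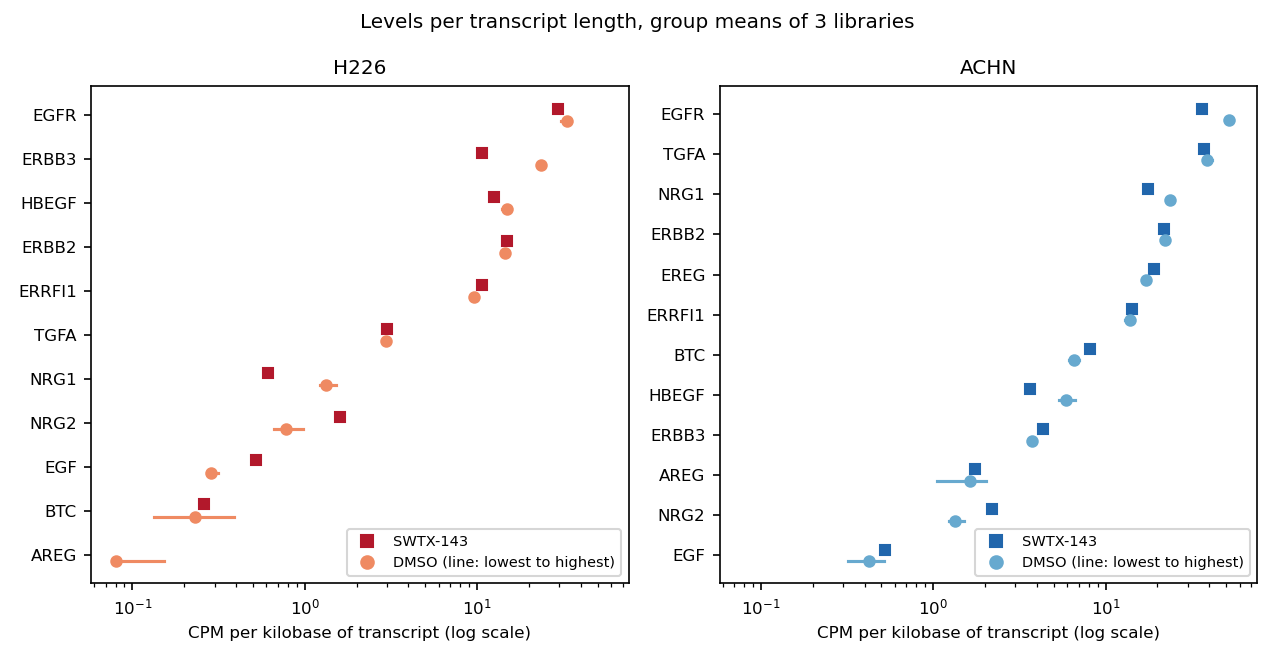
Group mean level of each ErbB gene in CPM per kilobase of longest coding transcript, on a log axis, in H226 (left) and ACHN (right), with SWTX-143 as squares and DMSO as circles whose line spans the lowest to highest library above 0 (n = 3). The ligands NRG2, BTC and EGF are also shown, EREG is not drawn for H226, where it has 0 counts, and the AREG square is missing there for the same reason. ERBB3 is the second highest in H226 with DMSO and near the bottom in ACHN.

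Between the lines under DMSO, edgeR's quasi-likelihood test on all 12 libraries placed ERBB3 6.29-fold higher in H226 (log2 difference 2.65 ± 0.06, adjusted p = 3.75e-57). HBEGF was also higher in H226 (1.33 ± 0.09, adjusted p = 4.7e-25). The other members were lower in H226. NRG1 (−4.16 ± 0.08) and TGFA (−3.72 ± 0.07) stood furthest apart among those with counts in every library. EGFR (−0.66 ± 0.08), ERBB2 (−0.61 ± 0.05) and ERRFI1 (−0.53 ± 0.07) differed less. EREG had 0 counts in H226 with DMSO, where 3 counts over the group would be 0.0994 CPM, against a mean of 78.9 CPM in ACHN with DMSO. It was therefore at least 795-fold lower in H226. AREG had 3 counts in H226 with DMSO and 68 in ACHN with DMSO, and the ratio of ACHN over H226 was 20.6 (95% Poisson interval 6.76 to 102, counting error only). For all 9 members the DMSO libraries of the lines did not overlap, beside 85.0% of the 14664 tested genes. Of these genes 84.4% were called, 42.2% higher and 42.2% lower in H226, so differences in the members are near the background. The lines came as separate tables, so line and handling cannot be told apart.

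The second question was how the members responded to TEAD inhibition in each line. In H226, ERBB3 and NRG1, a receptor and its ligand, each fell more than 2-fold with SWTX-143, and HBEGF was lower by a smaller step. In ACHN, EGFR, NRG1 and HBEGF fell, ERBB3 did not, and EREG was slightly higher. NRG1 and HBEGF thus fell in both lines. Of the 7 members that passed the count filter in H226, 3 were called, all lower, beside 40.7% of all 13484 tested genes called, 21.6% lower and 19.0% higher. The groups did not overlap for those same 3 members, beside 48.4% of tested genes. Both shares are near the background. AREG and EREG did not pass the filter in H226. In ACHN all 9 passed and 4 were called (3 lower and 1 higher), beside 17.8% of 13483 tested genes called, 9.37% lower and 8.43% higher. In ACHN the groups did not overlap for 5 of the 9 members, beside 31.7% of tested genes. The median log2 fold change of the tested members was −0.17 in H226 and −0.02 in ACHN, and that of all tested genes −0.0011 and 0.0013. With upper-quartile scaling, 2324 in place of 2919 genes were lower in H226 and 1028 in place of 1264 in ACHN.

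Among the receptors, ERBB3 changed most in H226. It had 62.6, 62.3 and 64.3 CPM in H226 with SWTX-143, against 139.5, 140.0 and 138.1 CPM in H226 with DMSO. The groups lay far apart, with replicates within 3 CPM of each other. The fall was 2.22-fold (log2 fold change −1.15 ± 0.05, adjusted p = 2.98e-26), which ranked 80 in size of fall among the 13484 tested genes. In ACHN, ERBB3 had 26.5, 25.3 and 25.6 CPM with SWTX-143, against 22.2, 21.4 and 22.7 CPM with DMSO. All 3 treated libraries were above all 3 DMSO libraries, but the test was not passed (0.21 ± 0.08, adjusted p = 0.0621). It was passed with upper-quartile scaling (adjusted p = 0.0339), library size alone (0.0293), genes of at least 5 CPM (0.0485) or all 12 libraries in one fit (0.0302). The difference in response, H226 minus ACHN, was −1.36 ± 0.09 (adjusted p = 6.52e-22).

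EGFR, the receptor of most ligands here, had 371, 358 and 344 CPM in ACHN with SWTX-143, against 484, 517 and 536 CPM in ACHN with DMSO. The groups did not overlap. EGFR fell 1.45-fold (log2 fold change −0.53 ± 0.04, adjusted p = 1.03e-16). In H226, EGFR had 281, 259 and 329 CPM with SWTX-143, against 343, 300.2 and 332 CPM with DMSO. Here the groups overlapped, because replicate 3 of the treated libraries lay within the DMSO range. The test was not passed (−0.17 ± 0.11, 95% interval −0.48 to 0.13, adjusted p = 0.307). Without that library it was (−0.28, adjusted p = 5.29e-08), and also with no filter on low counts (adjusted p = 0.000892). The difference in response between the lines was 0.35 ± 0.12 and did not pass (adjusted p = 0.0873). It passed with the DESeq2 Wald test (0.38, adjusted p = 0.0254) and with no filter on low counts (0.39, adjusted p = 2.32e-08). It also passed without DMSO replicate 1 (0.43), DMSO replicate 2 (0.34), treated replicate 2 (0.47) or treated replicate 3 (0.29) of H226.

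The EGFR transcript is long (9821 bases), and treated replicate 3 had the highest median for long transcripts among the H226 libraries, by a small margin. Over 889 tested genes with transcripts of 7857 to 12276 bases, the median log2 ratio to the DMSO mean was 0.01, −0.04 and 0.08 in H226 treated replicates 1, 2 and 3. In H226 DMSO replicates 1, 2 and 3 this median was 0.03, −0.05 and 0.01. For EGFR the ratio in the treated replicates was −0.21, −0.33 and 0.02. The part of transcript length in the EGFR result was not tested. EGFR shares 186 of its 12521 exon bases with the antisense gene EGFR-AS1, and the counting setting for strand is not given in the sources used here. EGFR-AS1 had 2570 counts over the 12 libraries, far fewer than EGFR.

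**Figure D2:**
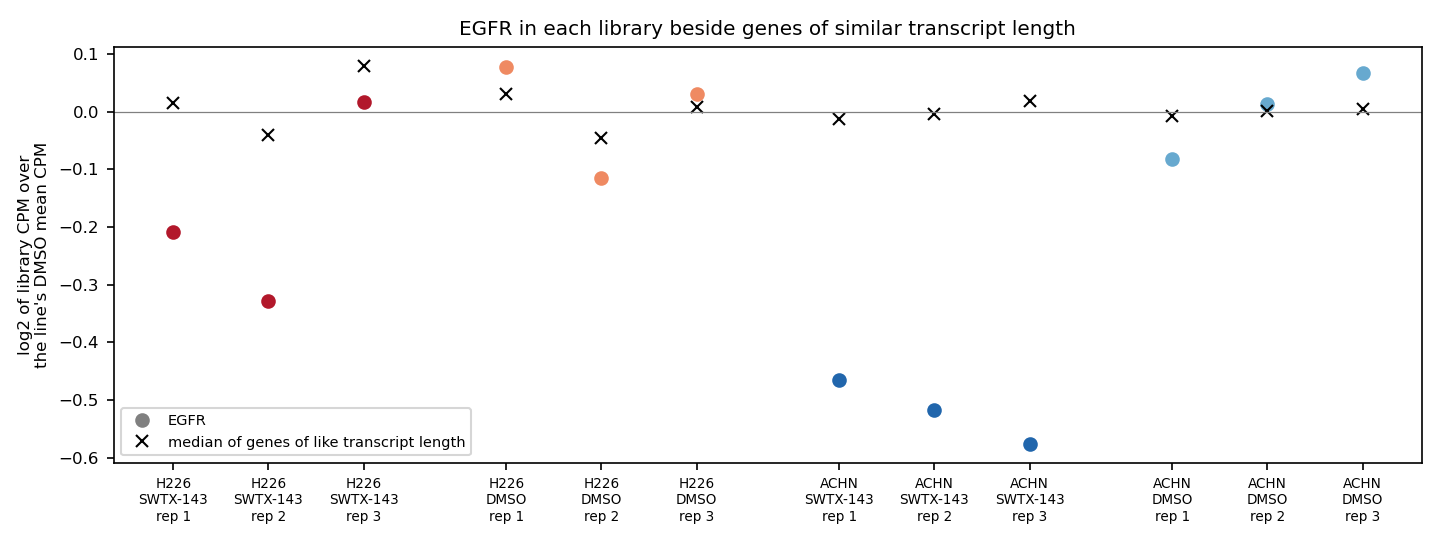
Log2 ratio of each library to the DMSO mean of its line for EGFR (circles) and the median of tested genes of 7857 to 12276 bases of transcript (crosses). The 3 treated ACHN libraries sit between −0.58 and −0.47, apart from ACHN DMSO, while the H226 treated libraries run from −0.33 to 0.02.

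ERBB2, the partner receptor, stayed close to its DMSO level. It had 72.5, 69.3 and 73.1 CPM in H226 with SWTX-143, against 67.9, 68.1 and 71.8 CPM with DMSO. In ACHN it had 104, 106 and 105 CPM with SWTX-143, against 105, 105 and 107 CPM with DMSO. Both pairs of groups overlapped. The 95% intervals of the log2 fold change were −0.07 to 0.15 in H226 and −0.11 to 0.07 in ACHN, and the ACHN estimate (−0.02) turned to 0.0043 with library size alone. ERBB2 shares exon bases on the other strand with MIEN1 (571 of 10321) and PGAP3 (194).

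Among the ligands, NRG1 had 3.95, 2.42 and 4.49 CPM in H226 with SWTX-143, against 7.27, 7.42 and 9.03 CPM in H226 with DMSO. These values rest on 26 to 82 counts a library, and the groups did not overlap. NRG1 fell 2.18-fold (log2 fold change −1.13 ± 0.18, adjusted p = 5.78e-07). In ACHN, where NRG1 was far more abundant, it had 106, 106 and 103 CPM with SWTX-143, against 143.3, 138.1 and 139.4 CPM with DMSO. The fall was 1.35-fold (−0.43 ± 0.04, adjusted p = 1.78e-11), with no overlap. The response was larger in H226 (difference −0.70 ± 0.17, adjusted p = 0.00113). Without treated replicate 2 of H226, the library with 26 counts, that difference was −0.44 and did not pass (adjusted p = 0.0899).

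HBEGF, the heparin-binding ligand of EGFR, had 30.3, 29.6 and 29.5 CPM in H226 with SWTX-143, against 33.2, 35.5 and 37.6 CPM with DMSO. The treated libraries were all lower, by a small margin (log2 fold change −0.26 ± 0.07, adjusted p = 0.00366). In ACHN it had 8.77, 9.50 and 7.87 CPM with SWTX-143, against 15.8, 13.5 and 12.8 CPM with DMSO. That fall was 1.63-fold (−0.71 ± 0.12, adjusted p = 5.57e-06), and the groups did not overlap. Contrary to NRG1, HBEGF fell more in ACHN (difference 0.44 ± 0.14, adjusted p = 0.0147). The difference did not pass without DMSO replicate 1 of ACHN (0.35, adjusted p = 0.0926) or without treated replicate 3 of ACHN (0.38, adjusted p = 0.0695).

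EREG, a ligand of EGFR, was the one member called higher. It had 87.7, 89.4 and 88.2 CPM in ACHN with SWTX-143, against 80.9, 77.3 and 78.6 CPM with DMSO. The groups did not overlap, and the rise was small (log2 fold change 0.15 ± 0.05, adjusted p = 0.0273). The DESeq2 Wald test did not call it (adjusted p = 0.0987). Nor did the fits without DMSO replicate 2 (0.103), DMSO replicate 3 (0.101), treated replicate 2 (0.0694) or treated replicate 3 (0.0520).

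TGFA and AREG did not pass the test. TGFA had 162, 165 and 157 CPM in ACHN with SWTX-143, against 178, 161 and 165 CPM with DMSO. In H226 it had 13.0, 12.5 and 13.2 CPM with SWTX-143, against 12.5, 12.6 and 13.3 CPM with DMSO. Groups overlapped in both lines, with 95% intervals of −0.15 to 0.01 in ACHN and −0.21 to 0.23 in H226. AREG had 24, 23 and 27 counts in ACHN with SWTX-143, against 25, 14 and 29 counts with DMSO. At this depth its interval was wide (−0.44 to 0.59). In H226 it had 0 counts in the 3 libraries with SWTX-143, against 2, 0 and 1 with DMSO, too few for a fold. RefSeq lists AREGB as another name of AREG, and the treatment of reads that match more than one place is not given, so its level is uncertain. No difference in response is given for AREG and EREG, which had 0 counts in treated H226.

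ERRFI1 binds the kinase domain of the receptors and blocks it. It had 34.2, 36.1 and 28.7 CPM in H226 with SWTX-143, against 29.7, 30.7 and 29.5 CPM with DMSO. In ACHN it had 42.4, 44.1 and 46.7 CPM with SWTX-143, against 40.1, 45.2 and 44.6 CPM with DMSO. Both pairs overlapped, with 95% intervals of −0.03 to 0.28 in H226 and −0.11 to 0.15 in ACHN. In H226 the low treated library was again replicate 3, and without it ERRFI1 was called higher (0.22, adjusted p = 0.0185). The joint test gave no call for a difference in response in ERBB2 (0.06 ± 0.07), TGFA (0.07 ± 0.11) or ERRFI1 (0.10 ± 0.10). Of the 7 members with a usable difference, ERBB3 and NRG1 were called lower and HBEGF higher, beside 15.6% of 14664 tested genes called, 9.70% lower and 5.89% higher.

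**Figure D3:**
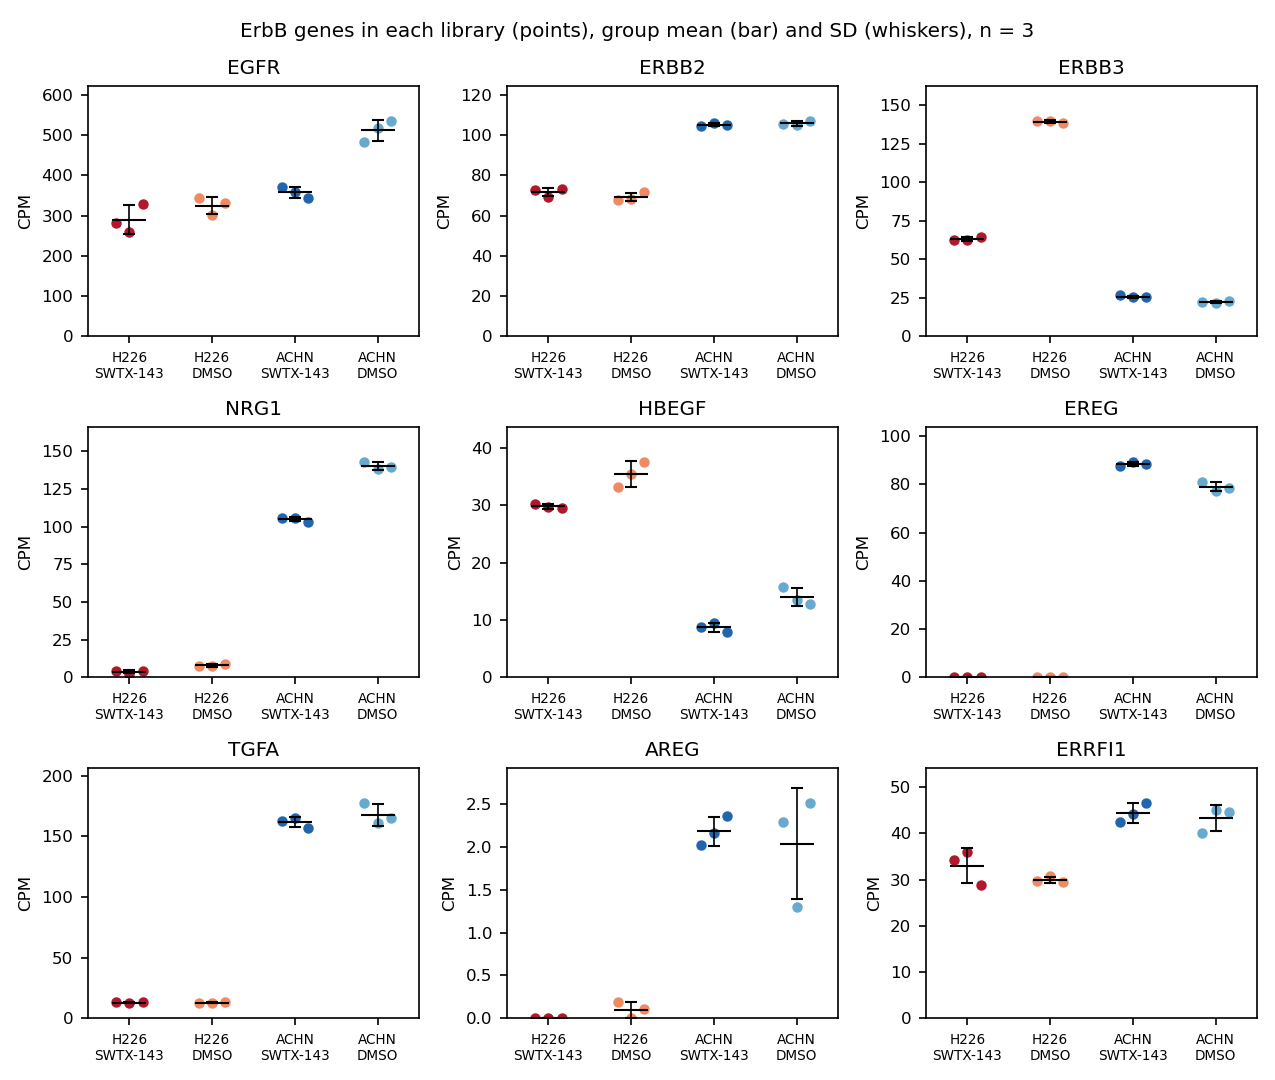
CPM of the 9 ErbB genes in every library, with group mean and SD (n = 3), on linear axes from 0 and with SWTX-143 left of DMSO for each line. ERBB3 is highest in H226 with DMSO (138.1 to 140.0 CPM), NRG1, TGFA and EREG stand out in ACHN, and EREG is at 0 in all 6 H226 libraries.

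**Figure D4:**
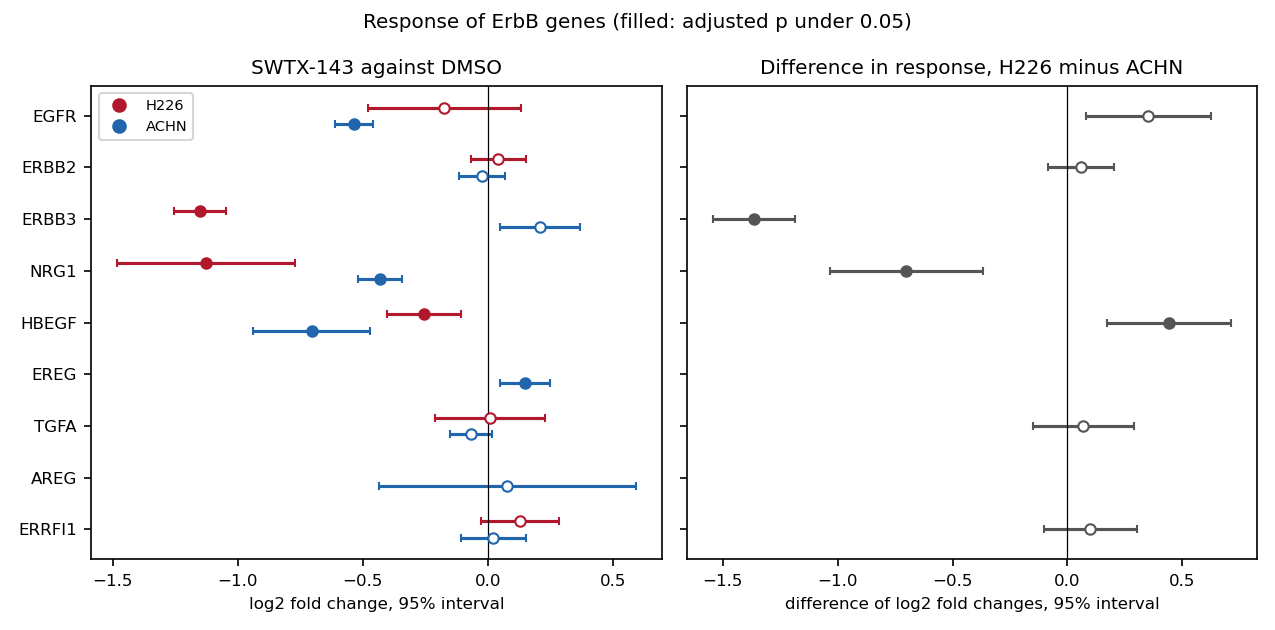
Log2 fold changes of SWTX-143 against DMSO (left, H226 red and ACHN blue) and their difference between lines (right, grey), with 95% intervals; filled points passed an adjusted p of 0.05. ERBB3 lies at −1.15 in H226 and 0.21 in ACHN, NRG1 and HBEGF lie below 0 in both, and AREG and EREG are missing where counts were 0 or too few.

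The sequence before the start was set out for the called members for which a RefSeq window was at hand, to show where the letters bound by TEAD occur. Windows were the 250 bases before each RefSeq start on GRCh38.p14, on the gene's strand, and 7 of the 9 members matched. They were searched on both strands for GGAATG, the core that TEAD proteins bind, which reads as CATTCC from the other strand. They were also searched for TGANTCA, a loose form of the letters bound by AP-1, in which N stands for any base. GGAATG was in 11.9% of 35116 such windows of RefSeq genes and TGANTCA in 6.57%. EGFR has 2 starts in the table. The counts do not separate the starts. Capitals mark the matches, and no match overlaps another.
EGFR, upstream start, chr7:55018767-55019016, plus strand: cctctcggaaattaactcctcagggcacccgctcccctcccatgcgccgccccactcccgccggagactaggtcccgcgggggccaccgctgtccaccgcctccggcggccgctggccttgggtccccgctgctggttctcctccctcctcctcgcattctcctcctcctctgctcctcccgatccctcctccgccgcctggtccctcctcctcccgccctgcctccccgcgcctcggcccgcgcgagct
EGFR, downstream start, chr7:55109589-55109838, plus strand: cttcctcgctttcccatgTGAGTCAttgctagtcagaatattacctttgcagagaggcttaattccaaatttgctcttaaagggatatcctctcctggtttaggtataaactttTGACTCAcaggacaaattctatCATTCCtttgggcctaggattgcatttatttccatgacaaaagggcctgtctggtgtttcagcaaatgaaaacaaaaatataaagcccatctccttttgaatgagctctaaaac
HBEGF, chr5:140346604-140346853, minus strand: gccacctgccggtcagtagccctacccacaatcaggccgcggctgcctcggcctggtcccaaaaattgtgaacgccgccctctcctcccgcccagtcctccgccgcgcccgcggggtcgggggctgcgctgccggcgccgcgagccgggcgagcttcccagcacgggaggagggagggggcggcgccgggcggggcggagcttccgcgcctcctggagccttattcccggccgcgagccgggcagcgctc
EREG, chr4:74364895-74365144, plus strand: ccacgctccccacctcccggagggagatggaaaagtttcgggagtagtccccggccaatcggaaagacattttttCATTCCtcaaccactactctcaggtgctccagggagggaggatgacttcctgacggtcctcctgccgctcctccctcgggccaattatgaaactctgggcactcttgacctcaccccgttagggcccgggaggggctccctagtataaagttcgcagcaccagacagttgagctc

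The window at the upstream EGFR start is rich in G and C (73.6%) and holds neither motif. The window at the downstream start has 38.8% G and C, with CATTCC at −114 to −109 and TGANTCA at −232 to −226 and at −136 to −130 from the start. HBEGF, which fell in both lines, has neither motif in a window of 76.4% G and C. EREG, which was higher in ACHN, has CATTCC at −175 to −170. Of the windows not printed, ERBB2 holds TGANTCA, read there as TGATTCA, at −222 to −216, and those of AREG, TGFA and ERRFI1 hold neither. No window was at hand for ERBB3 and NRG1, so neither gene was searched. A match is a description of letters and not a binding site.

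The rest of the ErbB pathway was read from 4 lists, whose counts stand beside the shares over all tested genes of 40.7% called in H226 (19.0% higher) and 17.8% in ACHN (8.43% higher). Of 7 other ligand and receptor genes, 2 were tested in H226 and both were called higher, and 3 were tested in ACHN, of which 2 were called higher. NRG2, another neuregulin, averaged 5.96 ± 0.804 CPM in H226 with SWTX-143 and 2.92 ± 0.626 CPM with DMSO (1.03 ± 0.19, adjusted p = 1.11e-05). It also rose in ACHN (0.70 ± 0.15, adjusted p = 0.000357), so that NRG1 fell and NRG2 rose in both lines. EGF rose in H226 (0.87 ± 0.27, adjusted p = 0.00753), from a low level, and the DESeq2 Wald test did not call it (adjusted p = 0.0690). Betacellulin (BTC) rose in ACHN (0.30 ± 0.09, adjusted p = 0.0096). It was not called by the DESeq2 Wald test (adjusted p = 0.0720) or without DMSO replicate 2 (0.0658). The neuregulin receptor ERBB4 had 1 count over all 12 libraries.

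Of 10 genes of ligand shedding, 4 were higher and 0 lower in H226, and 2 higher and 1 lower in ACHN. The H226 count is near the background of 40.7%. The median log2 fold change was 0.10 in H226 and 0.04 in ACHN. ADAM17, the main sheddase of EGFR ligands, rose in H226 (0.32 ± 0.04, adjusted p = 2.47e-08) and less in ACHN (0.13 ± 0.04, adjusted p = 0.0195). The ACHN call was lost in the DESeq2 Wald test (adjusted p = 0.0649), and without DMSO replicate 2, treated replicate 1 or treated replicate 3 (up to 0.0713). ADAM17 shares 1323 of its 10750 exon bases with IAH1 on the other strand. RHBDF2, which carries ADAM17 to the surface, rose in H226 (0.30 ± 0.05, adjusted p = 2.93e-06) and in ACHN (0.15 ± 0.05, adjusted p = 0.0446). The DESeq2 Wald test did not call RHBDF2 in ACHN (adjusted p = 0.156). Leaving out DMSO replicate 2, DMSO replicate 3, treated replicate 1 or treated replicate 3 also lost that call (up to 0.202). ADAM10, which cuts EGF and betacellulin, fell in ACHN (−0.18 ± 0.04, adjusted p = 9.76e-05).

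Of 18 genes of receptor turnover and restraint, 17 were tested in each line, with 6 higher and 4 lower in H226 and 2 higher and 1 lower in ACHN. The ACHN count is near the background of 17.8%. The medians were −0.03 in H226 and −0.0058 in ACHN. PTPRJ, a receptor phosphatase that acts on EGFR, rose by 0.30 ± 0.04 in both lines (adjusted p = 1.18e-07 in H226 and 1.01e-07 in ACHN). The ubiquitin ligase CBLB rose in H226 (0.65 ± 0.13) and in ACHN (0.60 ± 0.13, adjusted p = 0.000427). In H226, SH3KBP1, an adaptor of receptor endocytosis, rose (0.46 ± 0.04, adjusted p = 3.91e-14) and the phosphatase PTPN1 fell (−0.44 ± 0.04, adjusted p = 4.04e-13).

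Of 31 adaptors and effectors, 8 were higher and 9 lower in H226, and 2 higher and 5 lower in ACHN, beside 40.7% of all tested genes called in H226 and 17.8% in ACHN. The medians were 0.02 and 0.03. The docking protein GAB2 fell in H226 (−0.51 ± 0.05, adjusted p = 6.57e-13) and in ACHN (−0.31 ± 0.07, adjusted p = 0.00166). PTPN11, the phosphatase SHP2, which relays receptor signals to RAS, fell in H226 (−0.24 ± 0.04, adjusted p = 1.29e-06) and in ACHN (−0.14 ± 0.04, adjusted p = 0.00378). It shares 111 exon bases with RPL6 on the other strand, a far more abundant RNA. ERBIN, which binds ERBB2, fell in ACHN (−0.40 ± 0.04, adjusted p = 3.72e-11) and by less in H226 (−0.16 ± 0.05, adjusted p = 0.00347). The H226 call of ERBIN was lost without DMSO replicate 1 (adjusted p = 0.0561).

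The genes most like each member were those at the smallest distance over the 4 group means of log2 CPM, each centred on the gene's own mean, among 11488 genes averaging at least 5 CPM. For ERBB3 these were MSX1 (distance 0.30 on the log2 scale) and GNAZ (0.33), for HBEGF KLF5 (0.16) and DUSP1 (0.17), and for NRG1 KLHDC7A (0.38) and PLCB4 (0.41). EGFR lay nearest to HK2 (0.09) and EGFR-AS1 (0.09), TGFA to GGT7 (0.09) and STAC (0.12). EGFR-AS1 shares exon bases with EGFR on the other strand, and reads there cannot be assigned, so its likeness may not be independent. ERBB2 lay nearest to THADA (0.02) and XYLT2 (0.03), and ERRFI1 to ZSCAN12 (0.02) and ARSA (0.02). For EREG (POU3F3 and SLC17A3) and AREG (ATP10A and ASB13) the distance is set mainly by counts at or near 0 in H226. The group means of NRG1 and TGFA span 5.30 and 3.71 on the log2 scale, mostly between the lines, so a near gene need not share the response. GGT7 did not pass the count filter in H226. KLHDC7A was not called there (edgeR, adjusted p = 0.0616), while PLCB4 was called lower. The log2 fold change of MSX1, −1.57 in H226 and 0.16 in ACHN, follows from how it was chosen and is given as a description.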

How the data were processed

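The deposited tables, 1 per line, hold raw read counts per gene symbol as the authors wrote them: whole numbers with differing library totals. Per the submitters' processing notes, the tools were STAR 2.6.1d, cutadapt and FastQC, with hg19 (GRCh37) as build. How reads were counted (program, annotation, strand, multiple matches) is not given in the sources used here, so reads of overlapping genes cannot be assigned. GENCODE 29 and RefSeq (GRCh38) served for names, lengths, overlaps and promoter sequence, and no coordinate was carried between builds.

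In R 4.3.3, edgeR 4.0.16 (filterByExpr, TMM, robust quasi-likelihood F test, Benjamini-Hochberg over all tested genes, limit 0.05) compared SWTX-143 with DMSO in the 6 libraries of each line. A joint fit of all 12 gave the difference in response and the lines under DMSO. SE are the fold change over the root of F. CPM use the joint TMM factors, so their ratio can differ slightly from a fitted fold change. Alternatives were other scalings, other filters, DESeq2 1.42.0, the replicate number as a block, a joint fit and leaving out each library. Tests were tried on simulated counts. Chi-square per degree of freedom between replicates was 1.34 to 3.27, above sampling noise in every pair. Members and lists were chosen with earlier results of these data known. The text names the 9 members, the 2 called genes of smallest p per list and line, the 2 nearest genes per member and the check genes.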

Additional observations from a re-analysis of the deposited data

Results flagged for a closer look

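The tested difference in response, H226 minus ACHN, passed the limit for 3 of the 7 members with a usable value, beside 15.6% of all tested genes. For these it was −1.36 in ERBB3, −0.70 in NRG1 and 0.44 in HBEGF. Among the pathway and check genes taken by the naming rule it passed at 0.31 in SH3KBP1, −0.34 in PTPN1, 0.24 in ERBIN (fell more in ACHN), 0.18 in ADAM17 and −0.71 in the TEAD target ANKRD1. The ADAM17 difference did not pass without DMSO replicate 3 of ACHN (0.16), treated replicate 1 of ACHN (0.19), treated replicate 2 of ACHN (0.17) or treated replicate 1 of H226 (0.18). The ANKRD1 difference did not pass without DMSO replicate 2 of H226 (−0.58, adjusted p = 0.0575).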

How the results depend on the processing

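Under 8 alternatives and 6 left-out libraries, ERBB3, NRG1 and HBEGF in H226, and EGFR, NRG1 and HBEGF in ACHN, kept their direction and their call. Genes called ran from 4753 to 5365 in H226 and 1841 to 2174 in ACHN without 1 library, against 5486 and 2401 in full, and members called from 3 to 5 and from 3 to 4. The DESeq2 Wald test called 1492 genes in ACHN. Estimates that never passed and changed sign were TGFA in H226 (−0.0095 to 0.038 without 1 library), ERRFI1 (−0.031 to 0.057) and AREG (−0.15 to 0.26) in ACHN, and ERBB2 in ACHN (0.0043 with library size alone); the cause was not tested. Calls split into 2567 higher and 2919 lower in H226 (3283 and 2324 with upper-quartile scaling), and 1137 and 1264 in ACHN (1450 and 1028, or 1537 and 977 with library size alone). For the difference they split into 863 and 1423 (1159 and 1045 with upper-quartile scaling). Between the lines, library size alone moved the median of all genes to −0.16. Same-numbered libraries did not deviate together (correlations −0.12 to 0.08, and not every library was closest to its own number), and the replicate block gave 5744 calls in H226, 2146 in ACHN, 2328 for the difference and 11414 between lines. Among members the block called EGFR lower in H226 (adjusted p = 0.000544) and in the difference (2.04e-06), and lost EREG in ACHN (0.0528). Of 36 pairs of members, 32 in H226 and 31 in ACHN kept their order of level per coding length. Depth limits AREG in both lines, EREG in H226 and NRG1 in H226.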

Other observations

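A few ErbB regulators outside the naming rule were looked at after their values were seen. RNF41, a ubiquitin ligase that targets ERBB3, averaged 56.5 ± 2.23 CPM in H226 with SWTX-143 and 75.7 ± 3.67 CPM in H226 with DMSO (log2 fold change −0.43 ± 0.06, adjusted p = 1.12e-08, edgeR). In ACHN it averaged 55.1 ± 3.56 CPM with SWTX-143 and 63.3 ± 2.96 CPM with DMSO (−0.22 ± 0.06, adjusted p = 0.00502). The difference of the RNF41 responses did not pass (−0.22 ± 0.08, adjusted p = 0.0557). The kinase gene AKT1 (−0.24 ± 0.05) fell in H226, as did HRAS there (−0.30 ± 0.08) and in ACHN (−0.23 ± 0.08). LRIG3 rose in H226 (0.79 ± 0.25) from a low level, with 97 counts summed over the SWTX-143 libraries and 53 over the DMSO libraries. Its relative LRIG1 fell in H226 (−0.42 ± 0.16, adjusted p = 0.0304). In ACHN neither was called (LRIG3 0.06, adjusted p = 0.652; LRIG1 −0.0058, adjusted p = 0.980). The difference in response, H226 minus ACHN, passed for AKT1 (−0.20 ± 0.07, adjusted p = 0.0208) and LRIG3 (0.72 ± 0.25, adjusted p = 0.0364) and not for LRIG1 (−0.42 ± 0.19, adjusted p = 0.133).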
